A study of Mus musculus with 1183 samples.

Results

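The 9 genes described here encode the signalling chains of the B cell antigen receptor, other surface molecules of B cells, and proteins that mark stages of B cell development. They are Cd79a, Cd79b, Ms4a1, Cd22, Vpreb3, Cd24a, Fcer2a, Cr2 and Rag1. They were chosen by symbol, and all 9 were found among the 18072 genes of the count table. The study sequenced single cells of the mouse distal lung, taken on postnatal day 7 after exposure to hyperoxia, an excess of oxygen that injures the forming lung. Every cell used here shares that age and treatment, and no cells kept at normal oxygen were analysed. The labels name 1 female mouse with 598 cells and 1 male mouse with 585 cells. The labels do not say whether such a name stands for 1 animal or a pool, and each was taken as 1 animal. Their strain is not given in the sources used here. With 1 mouse of each sex, sex and animal cannot be told apart, so the 2 animals are given side by side with no test between them. The 1183 cells carry 16 subtype labels, and 65 of them are labelled B cell, 39 from the female and 26 from the male. The other 1118 cells carry the remaining labels, among them T cell, NK cell, IL cell, 3 dendritic cell classes (DC I to DC III), 5 macrophage classes (Mac I to Mac V), neutrophil, basophil and 2 mast cell classes. All but 10 cells came from plates named for a CD45 gate, CD45 being the surface protein of blood-derived cells, and those 10 came from plates named CD31 or mesench.

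B cells recognise antigen with an immunoglobulin bound to the cell surface, which signals through a pair of partner chains, Cd79a and Cd79b. Precursors cut and join their immunoglobulin genes with the recombinase Rag1 and first test a heavy chain with a surrogate light chain built from Vpreb1 and Igll1. Immature B cells carry much CD24 (Cd24a) and still make Vpreb3, a chaperone-like protein that binds new immunoglobulin chains. Mature B cells carry CD20 (Ms4a1), the inhibitory lectin CD22 (Cd22), the low-affinity IgE receptor CD23 (Fcer2a) and the complement receptor CD21 (Cr2). CD24 is also made by many other white cells.

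Promoter sequence from RefSeq (GRCm38.p6) was held for 6 of the 9 members, in 8 entries. Of these, 3 are shown because they span the range from the member read almost only in B cells (Vpreb3), through the receptor chain Cd79a, to Cd22, of which most reads lay outside B cells. Each line gives the 250 bases before a RefSeq transcription start, 5′ to 3′ on the gene's strand, and capitals mark motif matches.
Vpreb3: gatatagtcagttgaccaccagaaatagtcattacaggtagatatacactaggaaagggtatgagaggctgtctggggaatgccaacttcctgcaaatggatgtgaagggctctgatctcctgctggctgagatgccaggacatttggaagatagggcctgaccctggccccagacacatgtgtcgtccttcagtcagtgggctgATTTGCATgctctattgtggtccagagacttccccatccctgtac
Cd79a: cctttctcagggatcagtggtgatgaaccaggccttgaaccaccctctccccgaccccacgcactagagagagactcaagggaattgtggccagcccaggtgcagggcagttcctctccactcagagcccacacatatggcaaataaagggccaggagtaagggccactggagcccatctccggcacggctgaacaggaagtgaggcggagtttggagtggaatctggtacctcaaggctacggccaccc
Cd22: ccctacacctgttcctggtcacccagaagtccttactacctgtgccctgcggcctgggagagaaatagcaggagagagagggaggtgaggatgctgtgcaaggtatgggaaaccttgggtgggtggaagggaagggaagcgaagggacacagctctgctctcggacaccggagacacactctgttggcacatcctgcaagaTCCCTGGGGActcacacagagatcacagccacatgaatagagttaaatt
The windows lie at chr10:75948050-75948299 on the plus strand, chr7:24897247-24897496 on the plus strand and chr7:30879029-30879278 on the minus strand. These starts differ from the outer gene starts in the GENCODE annotation used for exon lengths. By that annotation the Cd79a window reaches into its gene, and the Vpreb3 and Cd22 windows lie within theirs. Both strands were searched for the octamer ATTTGCAT, which Oct factors bind, and for TCCC and GGGA with any 2 bases between them, a consensus of the B lineage factor Ebf1; the motifs do not overlap each other. An octamer begins 45 bases before the Vpreb3 start, and 1.60% of all 32851 promoter windows of that length hold one. The match to the Ebf1 consensus begins 49 bases before the Cd22 start, and 0.779% of all windows hold one. The windows of Cd79a, Fcer2a, Cr2 and Rag1 held neither set of letters.

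Summed over B cells, the female gave 51592539 reads and the male 32330175, and a B cell had from 88746 to 3876133 reads with a median of 1290060. Levels are given as CPM, the reads of a gene scaled to 1000000 reads of all genes in the same summed library or cell. The label B cell was set against 6 markers, among them Cd79a, Cd79b, Ms4a1, Pax5 and Ebf1. A cell was called positive for a gene when it had at least 5 reads after each cell had been thinned to 100000 reads, which corresponds to 50 CPM. At least 4 of the 6 markers were positive in 37 of 39 B cells of the female and 22 of 26 of the male. Against their label, 5 cells labelled B cell (2 female, 3 male, all from plate 2 of their animal) were positive for fewer than 2 of the 6, and all 4 T cell markers (Cd3e, Cd3d, Cd3g and Lck) were positive in each. These 5 cells had 0 CPM of every member other than Cd79b, which reached 172.8 CPM in 1 female cell and 120.8 CPM in 1 male cell, although all had Ighm reads (554 to 1190 CPM). The members Cd79a, Cd79b and Ms4a1 are among the 6 markers, so their lack in these cells follows largely from the choice. In the other direction, 5 cells with other labels were positive for 3 or more of the 6 B cell markers. They were a Mac IV cell and a mast cell of the female, and a Mac IV cell, a neutrophil and a DC III cell of the male.

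Cd79a was read at 3825 CPM in the B cells of the female and 4730 CPM in those of the male, against 3.19 and 5.30 CPM in all other cells of the same animals. Both B cell libraries lay about 3 orders of magnitude above both others, by 1199-fold in the female and 892-fold in the male. In edgeR's quasi-likelihood test the log2 fold change was 9.96 ± 0.55 (SE) with an adjusted p of 0.00523. Its partner chain Cd79b stood at 3244 and 4096 CPM in B cells and at 31.98 and 28.05 CPM in the other cells, female then male. The log2 fold change of Cd79b was 6.93 ± 0.37 with an adjusted p of 0.00523 in the same edgeR test. Outside B cells the chains were spread differently over cells. Of all Cd79a reads in the table, 98.4% were in cells labelled B cell, against 87.97% for Cd79b. Cd79a in the DC III cells of the male (41.3 CPM), the mast cells of the female (24.4 CPM) and the Mac IV cells of the male (11.5 CPM) came whole from 1 cell in each library. Those are 3 of the 5 cells named above. Cd79b in Mac IV cells, by contrast, was at 81.7 CPM (female) and 73.3 CPM (male) and was positive in 18 of 63 and 21 of 79 cells, and the cell with the most reads gave 13.04% and 12.27% of them. Mac V cells had 48.9 and 82.4 CPM of Cd79b with 13 of 66 and 6 of 44 cells positive, and 1 cell gave 34.6% (female) and 33.9% (male) of the reads.

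In B cells Ms4a1, which encodes CD20, was at 1968 CPM (female) and 1391 CPM (male), and at 3.54 and 2.76 CPM in the other cells. Its log2 fold change was 9.05 ± 0.42 with an adjusted p of 0.00523 in edgeR's test. The mast cells of the female (36.4 CPM), the DC III cells of the male (33.1 CPM) and the neutrophils of the male (14.2 CPM) owed 99.96%, 100% and 99.5% of their Ms4a1 to 1 cell each, again among the 5 named above. Cd22, the inhibitory lectin, was far less restricted. It was read at 189.3 and 127.2 CPM in B cells and at 24.3 and 30.4 CPM in the other cells, and only 27.3% of its reads were in B cells. Its log2 fold change was 2.51 ± 0.36 with an adjusted p of 0.0346 in edgeR's test. The order of subtypes for Cd22 was B cell, Mac III (70.1 CPM female, 73.1 CPM male) and Mac II (32.2 and 40.3 CPM), and each step held in both animals without overlap. In Mac III cells Cd22 was positive in 62 (34.3%) and 78 (37.5%) of the thinned cells, and the highest cell gave 7.91% and 5.42% of the reads, so the signal was spread over many cells. Cd22 shares 479 exon bases with Gm29439 on the opposite strand in the GENCODE annotation of GRCm38, and reads from those bases may belong to either gene.

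Vpreb3 was the member most restricted to B cells. Its levels there were 647 CPM for the female and 616 CPM for the male, a smaller relative spread than for any other member. In all other cells of the female it had 65 reads, all in the Mac IV cell with 5 B cell markers, and in those of the male it had 1 read. Of all Vpreb3 reads, 99.9% were in B cells, and edgeR's test gave a log2 fold change of 13.73 ± 1.88 with an adjusted p of 0.0319. When all cells were given equal totals before summing, its log2 fold change was 11.23 and the adjusted p in edgeR's test 0.0865, which did not pass. In 12 of the 14 other subtypes compared, neither animal had a read. Cd24a was at 1482 CPM in the B cells of the female and 795 CPM in those of the male, or 6.80-fold and 4.62-fold above the other cells. It passed edgeR's test with a log2 fold change of 2.53 ± 0.39 and an adjusted p of 0.0401, but B cells did not stand apart from every class. DC I cells had 925 and 586 CPM of Cd24a, neutrophils 621 and 570 CPM and mast cell II cells 735 and 225.3 CPM, and the female's DC I library lay above the male's B cell library. NK cells were lowest, with 0 of 5 and 0 of 6 thinned cells positive. The recombinase gene Rag1 was at 10.7 and 7.86 CPM in B cells and at 0.191 and 0.0249 CPM in the other cells, and its adjusted p of 0.0843 in edgeR's test did not pass. A same-strand neighbour, B230118H07Rik, shares 80 exon bases with Rag1.

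Fcer2a, the CD23 gene, was at 73.8 CPM in the B cells of the female and 64.7 CPM in those of the male. The other cells of the female held 15 reads of it and those of the male 1219 reads. Mac IV cells of the male had 1131 of those, and 99.9% of these came from the Mac IV cell with B cell markers. With all cells in place the adjusted p in edgeR's test was 0.120, and without the 5 cells of other labels that had B cell markers it was 0.0193. Cr2, the CD21 gene, was the scarcest member. B cells of the female had 4.30 CPM (95% exact Poisson interval 3.76 to 4.91), and the male had 1.64 CPM of it (1.23 to 2.14). The male's neutrophils (6.67 CPM), NK cells (3.98 CPM), mast cells (3.81 CPM) and mast cell II cells (3.18 CPM) were all above the male's B cells, and 99.1% of the neutrophil reads and all NK, mast and mast cell II reads came from 1 cell each. Cr2 did not differ beyond the spread of the animals in edgeR's test (adjusted p = 0.379).

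**Figure D1:**
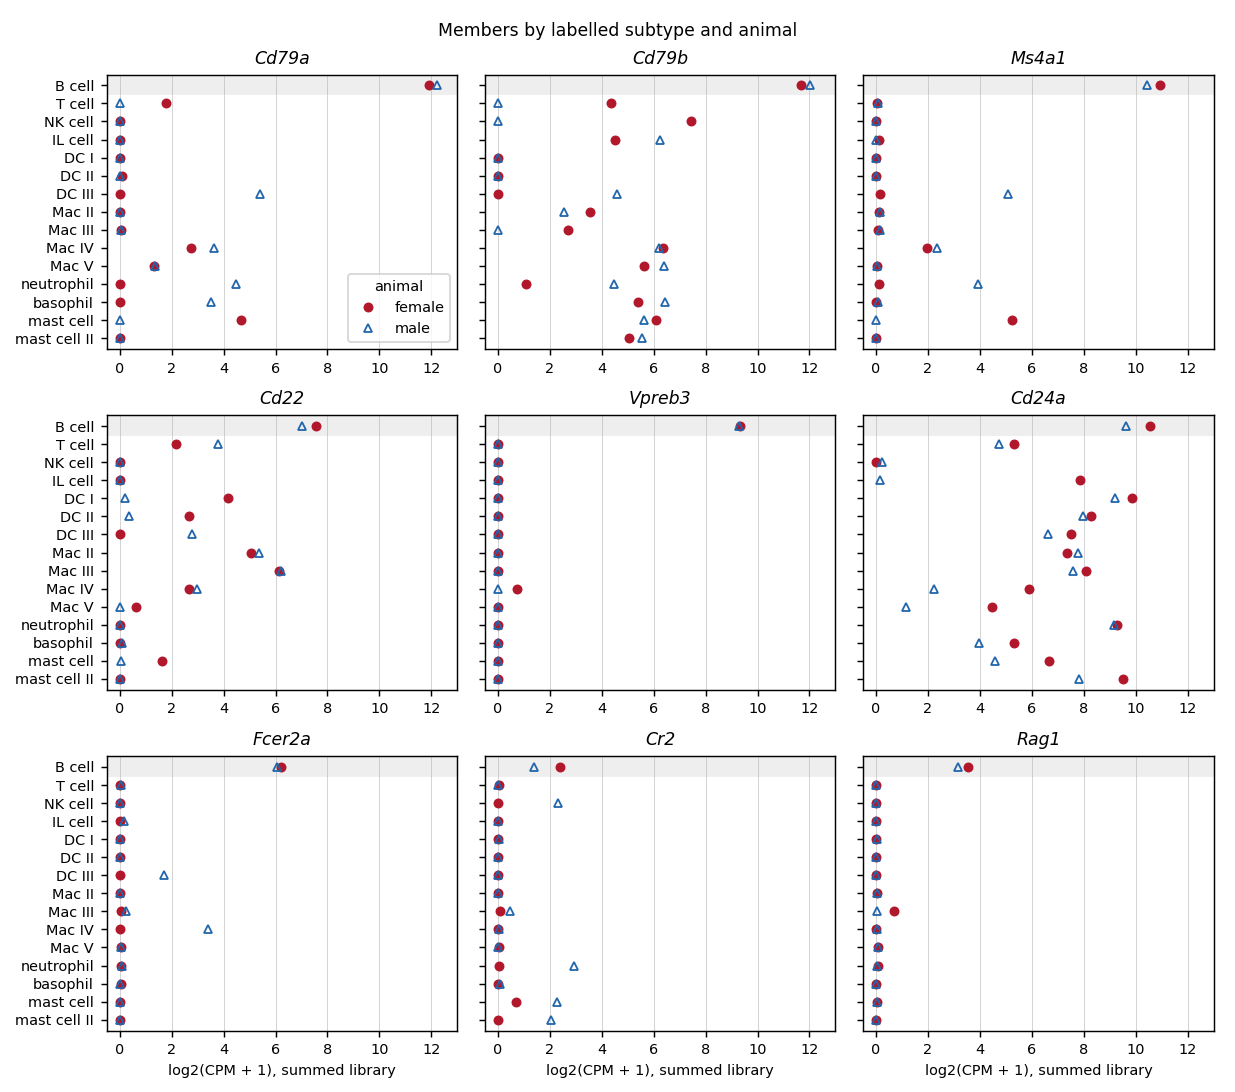
Level of each member in the libraries summed per labelled subtype (vertical axis) and animal, as log2(CPM + 1) on the horizontal axis. Filled circles are the female and open triangles the male, 1 value each, and the grey band marks B cells. Cd79a, Cd79b and Ms4a1 lie above 10 in B cells, Vpreb3 lies near 0 elsewhere, Cd22 extends to Mac III and Mac II, and Cd24a extends to DC I, neutrophil and mast cell II.

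In all, 6 of the 9 members (Cd79a, Cd79b, Ms4a1, Cd22, Vpreb3 and Cd24a) were called higher in B cells than in the other cells, where 1.13% of the 16153 genes tested were so called. The other 3 fold changes were positive too and did not pass, and 2.47% of all genes were called lower. The median log2 fold change was 6.43 over the members and -0.28 over all genes tested. DESeq2 called 8 of 9, but it called 1408 of 18012 genes higher in B cells. With the animal as a block the count was also 6, and within the sequencing run that both animals share it fell to 2, Cd79b and Vpreb3, with an adjusted p of 0.0134 for both and of 0.0765 for Cd79a and 0.0874 for Ms4a1. Leaving out the other cells of either animal ended the calls of Cd22 and Cd24a. The labels do not say how subtypes were assigned, and if that was done from these counts, the members' differences between subtypes are descriptions of the labels.

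Set against each of 14 other subtypes in a joint fit of 30 libraries, both B cell libraries lay above both libraries of the other subtype in all but 5 of the pairs of member and subtype, where 26.7% of all such pairs of gene and subtype did. The exceptions were Cd24a against DC I and Cr2 against neutrophil, NK cell, mast cell and mast cell II. Far fewer passed edgeR's test after adjustment over 218400 tests. It called 7 pairs of member and subtype higher in B cells, where 0.662% of all tests were so called. Of these, 6 were of Ms4a1, against DC I, mast cell II, Mac V, DC II, T cell and basophil (adjusted p from 0.0365 to 0.0479), and 1 was of Cd24a against NK cells (adjusted p = 0.0101). With the animal as a block 4 passed, with DESeq2 51 passed, and without the 5 cells of other labels that had B cell markers 44 passed. Leaving out either B cell library left 1, and leaving out the female or the male comparator libraries left 1 and 0. The fit therefore gave no stable count for single subtypes. The share of all tests called is given for the main fit only.

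Per kilobase of exon, the receptor chains were the most abundant members in B cells, Cd79a at 2625 and 3246 CPM per kb and Cd79b at 2267 and 2862 CPM per kb, female then male. Vpreb3 followed with 753 and 717 CPM per kb, then Cd24a with 574 and 308.1 and Ms4a1 with 318.1 and 224.8 CPM per kb. Cd22 (37.5 and 25.2 CPM per kb) and Fcer2a (23.9 and 20.9) were an order lower, and Rag1 (1.62 and 1.19) and Cr2 (0.530 and 0.202) lower again.

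A summed level does not tell how many cells carry a gene, so the members were followed cell by cell in the 64 B cells deep enough to be thinned. Cd79b was positive in 38 of 39 B cells of the female (97.4%, 95% Clopper-Pearson interval 86.5 to 99.9%) and in 22 of 25 of the male (88%, 68.8 to 97.5%). The share for Cd79a was 94.9% in the female and 84% in the male, for Ms4a1 87.2% and 80%, and for Cd24a 82.1% and 80%. Those 4 members were positive in at least 50% of the B cells of both animals. Without the 5 cells that went against their label, the share for Cd79a was 100% (37 of 37) and 95.5% (21 of 22). Those cells were picked for lacking markers that include Cd79a, so this rise follows from the choice. Cd22 was positive in 61.5% (44.6 to 76.6%) of the female's B cells and 32% (14.9 to 53.5%) of the male's. That gap depends on the threshold and on the random thinning. With at least 20 thinned reads the shares were 35.9% and 28%, and with at least 1 they were 66.7% and 48%. Another random thinning at the main threshold gave 56.4% and 40%. In Mac III cells, where Cd79a was positive in none (which allows shares of up to 1.66% and 1.44%), Cd22 was positive in 34.3% and 37.5%, so the male's B cells were within the interval of the macrophages. Median depth was 1131743 reads in the female's B cells and 1471919 in the male's before thinning, against 1065415 and 1151124 in Mac III cells.

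Vpreb3 divided the B cells. It was positive in 18 of 39 (46.2%, 30.1 to 62.8%) and 10 of 25 (40%, 21.1 to 61.3%), against 0 Mac III cells of either animal. The cell with the most reads of Vpreb3 gave 34.97% of them in the female, at 3010 CPM, and 38.3% in the male, at 4678 CPM. The highest level, 11730 CPM, was in another female cell. Fcer2a was positive in 6 of 39 (15.4%, 5.86 to 30.5%) and 3 of 25 cells (12%, 2.55 to 31.2%). Positive cells had from 96.4 to 2272 CPM of Fcer2a in the female and from 553 to 729 CPM in the male. Rag1 was positive in 2 of 39 and 1 of 25 cells, at 101.1, 180.5 and 141.5 CPM. Cr2 was positive in 2 of 39 cells of the female, at 593 and 96.8 CPM, and in 0 of 25 of the male, which allows a share of up to 12%. No more than a few cells therefore carry the summed levels of Rag1 and Cr2.

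**Figure D2:**
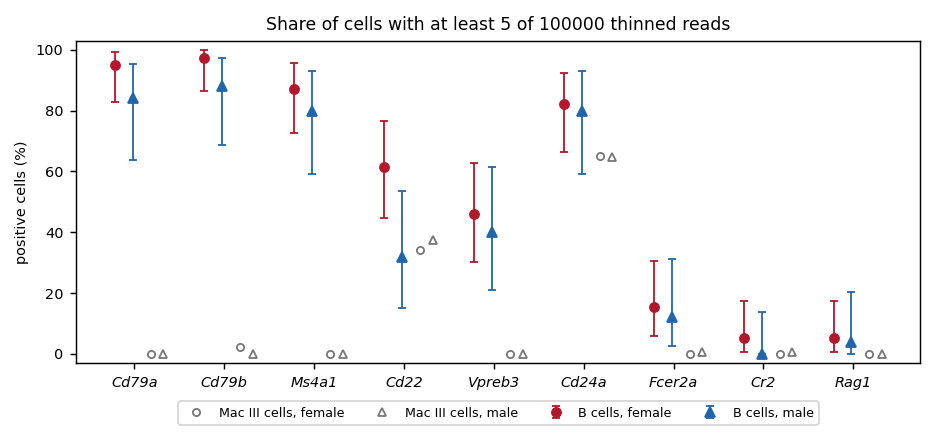
Share of cells positive for each member, in percent, with filled symbols and 95% Clopper-Pearson intervals for B cells and grey open symbols for Mac III cells (circles female, triangles male). Cd79a, Cd79b, Ms4a1 and Cd24a are positive in 80% or more of B cells in both animals, and Cd24a and Cd22 are also common in Mac III cells.

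A small set of cells combined several stage genes. Both genes of the surrogate light chain, Vpreb1 and Igll1, were positive in 4 B cells, 2 from plate 1 of each animal. In all 4, Vpreb3 was high, at 3010 and 1722 CPM in the female and 1526 and 1542 CPM in the male. Cd24a stood at 4334 and 856 CPM in the female and at 2367 and 2710 CPM in the male. Rag1 was positive in 1 of the 2 cells of each animal. These cells had the receptor chains, with Cd79a from 1513 to 3679 CPM and Cd79b from 566 to 2387 CPM. Ms4a1 was at 0 in 3 of the 4 cells and at 0.557 CPM in the fourth, and Cd22, Fcer2a, Cr2 and the kappa light chain gene Igkc were at 0 in all 4. Ighd, which encodes the IgD constant region and is known from later stages, was nonetheless positive in both cells of the female (158.4 and 172.6 CPM), and at 0 and 11.7 CPM in the male. Tnfrsf13c, a survival receptor gene of mature B cells, was positive in 1 of the 2 female cells (905 CPM) and in both male cells (59.1 and 269.7 CPM). All 4 were positive for at least 4 of 10 cell cycle genes. The remaining Rag1-positive cell, from plate 2 of the female, had no surrogate light chain and no Vpreb3, but 886 CPM of Fcer2a, 2797 CPM of Ighd and 7582 CPM of Igkc.

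Outside those cells, Vpreb3 and Ms4a1 were mostly found together. Vpreb3-positive cells without surrogate light chain numbered 16 in the female and 8 in the male, and Ms4a1 was positive in 15 and 8 of them, with medians of 2402 and 1856 CPM. The Vpreb3-negative cells that kept their label numbered 19 and 12, all positive for Ms4a1, with medians of 2170 and 2232 CPM. The exception among Vpreb3-positive cells was the female cell at 11730 CPM, with Ms4a1 at 0 and 11590 CPM of Igkc. Cd22 was positive in 11 of 16 Vpreb3-positive against 13 of 19 Vpreb3-negative cells in the female and in 2 of 8 against 6 of 12 in the male. For Ighd these counts were 14 of 16 against 13 of 19, and 5 of 8 against 12 of 12, so the animals went opposite ways. Fcer2a or Cr2 was positive in 4 of 16 Vpreb3-positive cells of the female and 1 of 8 of the male. Among Vpreb3-negative cells the counts were 3 of 19 and 2 of 12. The cell with the most Fcer2a (2272 CPM) also had the most Cr2 (593 CPM) and 735 CPM of Vpreb3. Fcer2a was positive in no surrogate light chain cell, and Igkc was positive in all 9 Fcer2a-positive cells.

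**Figure D3:**
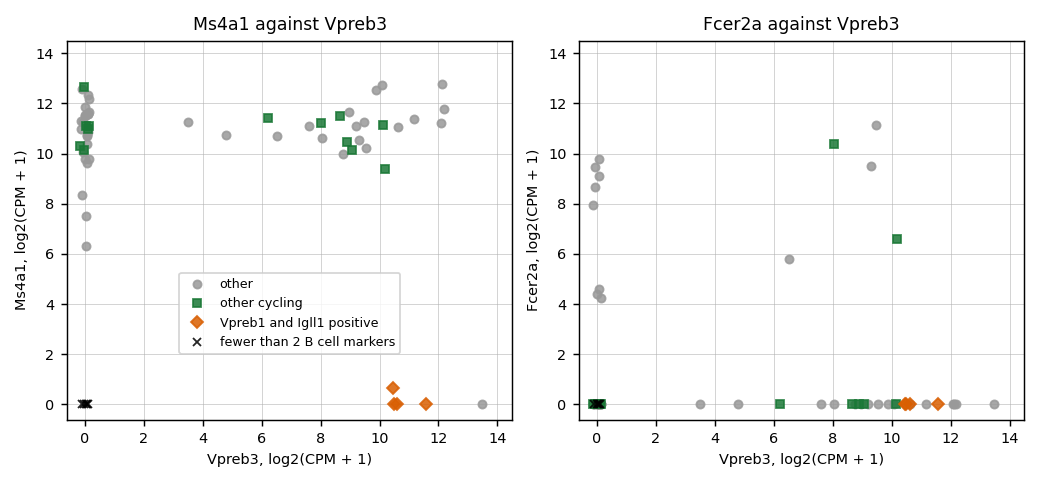
Each point is 1 of the 65 cells labelled B cell, with Vpreb3 on the horizontal axis and Ms4a1 (left) or Fcer2a (right) on the vertical axis, all as log2(CPM + 1), and points are spread slightly sideways. The 4 cells positive for Vpreb1 and Igll1 (diamonds) have Vpreb3 and almost no Ms4a1, crosses at the origin are the 5 cells with fewer than 2 B cell markers, and most other Vpreb3-positive cells have Ms4a1 above 8.

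As a description over cells, Cd79a and Cd79b varied together, with a Spearman rho of 0.61 in the female (39 cells) and 0.87 in the male (25 cells), and of 0.54 and 0.82 without the 5 cells that went against their label. Ms4a1 and Cd22 had a rho of 0.51 in both animals (0.45 and 0.42 without those cells). Vpreb3 and Cd24a had a rho of 0.33 and 0.48 (0.27 and 0.43). Vpreb3 and Ms4a1 had a rho of -0.03 in both animals (-0.11 and -0.18). The cells of an animal share plates and the codes taken as sequencing runs.

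Levels also differed between plates of an animal. On plate 1 of the female, whose B cells have a run code of their own (DC28), 12 B cells had Cd24a at 3467 CPM. Cd24a was at 503 CPM in the 27 B cells of plate 2. In the male it was at 971 and 585 CPM. Thus the female's higher level of Cd24a rests on plate 1, and without that plate it lies below the male's. That plate also held more cycling cells, 7 of 12 against 6 of 27 on plate 2 of the female and 4 of 14 and 3 of 11 in the male. On plate 1 of the female the median Cd24a was 4104 CPM in cycling and 1264 CPM in other B cells, while on plate 2 it was 137.3 and 531 CPM. In the male the medians were 1864 and 198.98 CPM on plate 1 and 885 and 505 CPM on plate 2. The cycling cells of plate 1 include surrogate light chain cells (2 of 7 in the female, 2 of 4 in the male), and those of plate 2 include cells that went against their label, with Cd24a at 0 (2 of 6 and 1 of 3). Without both kinds, the medians in cycling and other cells were 4104 and 1264 CPM on plate 1 of the female and 209.96 and 531 CPM on plate 2. In the male they were 952 and 198.98 CPM on plate 1, and 1162 and 688 CPM on plate 2, over 2 cycling cells each. The part of run, plate and stage in this was not tested. Fcer2a-positive cells came from plate 2 of the female (6 of 27) and plate 1 of the male (3 of 14), with 0 of 12 and 0 of 11 on the other plates, which allow shares of up to 25% and 27.3%.

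**Figure D4:**
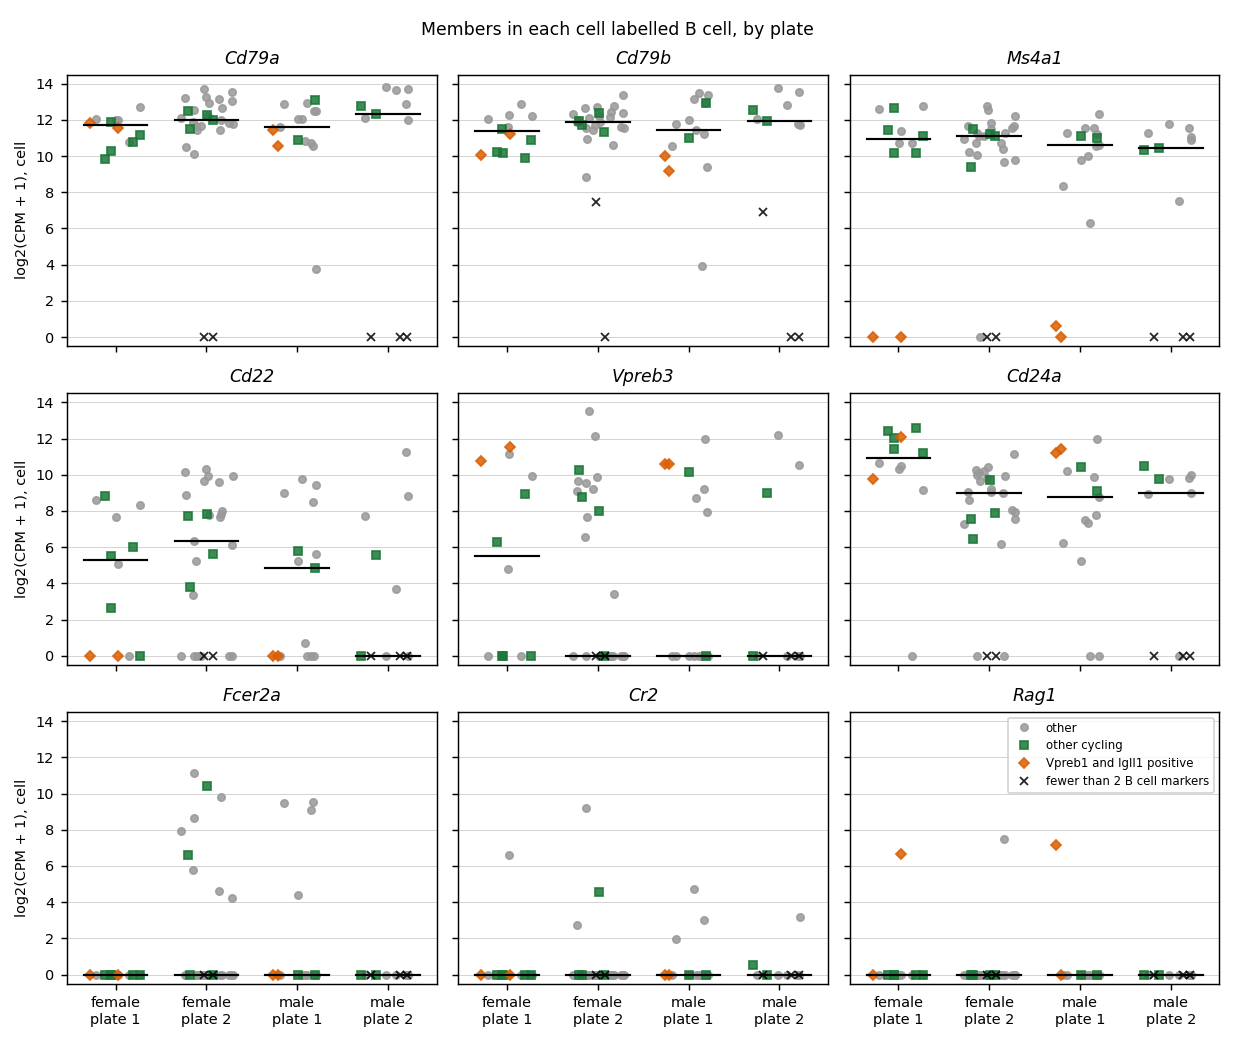
Level of each member in every cell labelled B cell, as log2(CPM + 1), by animal and plate, where a black bar is the median of a plate. Diamonds are cells positive for Vpreb1 and Igll1, squares other cycling cells, crosses cells with fewer than 2 B cell markers and circles all others. Cd24a on plate 1 of the female lies above that of the other plates, and Fcer2a, Cr2 and Rag1 are at 0 in most cells.

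Other genes of the B cell were read against the same test, in lists fixed by function. Of 9 B lineage transcription factors, 7 were called higher in B cells, with a median log2 fold change of 3.48. Spib, at 767 and 487 CPM, and Ebf1, at 530 and 322.1 CPM, were the most abundant, and Pou2f2 (log2 fold change 1.77 ± 0.32) and Bach2 (2.12 ± 0.50) did not pass. All 6 immunoglobulin constant genes were called higher, led by Ighm at 7985 and 5199 CPM and Igkc at 4158 and 5230 CPM. Of 16 genes of receptor signalling, 3 passed, all higher, among them the kinase gene Blk and the adaptor gene Blnk, and the median was 0.63. Blnk stood at 531 and 435 CPM in B cells, female then male. Lyn and Syk, kinases that act on the Cd79 chains, were positive in 30 and 12 and in 22 and 14 B cells of the female and the male, and did not pass, with log2 fold changes of -0.22 ± 0.37 and 0.23 ± 0.26. Of 9 inhibitory receptors and phosphatases, Cd72, Siglecg, Fcrla and Fcrl1 were called higher, with a median of 1.66, and Siglecg, a lectin related to Cd22, was at 902 and 553 CPM.

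Among genes of B cell stages, 6 of 12 mature follicular genes were called higher, with a median of 3.29. They were Ighd, Tnfrsf13c, Cd55, H2-Ob, Ltb and Cd38, and Tnfrsf13c, the receptor for the survival factor BAFF, was at 801 and 699 CPM. Of 10 precursor and immature genes tested, only Vpreb1 and Igll1 passed, on the reads of the 4 cells described above, with a median of 1.48. Of 7 marginal zone and B1 genes, only Cd9, a tetraspanin, passed, and it was lower in B cells. Its levels there were 161.4 and 236.1 CPM, against 2186 and 2365 CPM in the other cells. The other genes of that list had positive log2 fold changes that did not pass, and the median over the list was 1.02. Of 9 germinal centre and plasma cell genes only Mzb1, a chaperone of immunoglobulin assembly, was called, at 1065 and 824 CPM, and the median was -1.47. Prdm1 and Sdc1 had at most 1.18 CPM in B cells.

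Markers of other cells in the B cell libraries were also summed. The 4 T cell markers came to 330.4 CPM (female) and 717 CPM (male), and 11 and 10 B cells were positive for at least 1, mostly Lck. The 4 macrophage markers came to 1369 and 1410 CPM, where the other cells had 15580 and 15840 CPM. Lyz2 was positive in 3 cells of the female (5265, 20980 and 21490 CPM) and 2 of the male (5786 and 24070 CPM). The other cells had 13810 and 13790 CPM of Lyz2. The B cells at 5265 and 5786 CPM were also positive for Fcer2a. The 4 neutrophil markers came to 30.5 and 2238 CPM, of which S100a8 was positive in 1 cell of each animal (1397 and 24860 CPM). Ly6g was at 0. Mast cell markers were at 0.0388 and 0.155 CPM and dendritic cell markers at 0.233 and 3.46 CPM, so both lists were at or near 0. Without B cells positive for a T cell, macrophage or neutrophil marker, 3 of the 5 cells positive for Vpreb3 together with Fcer2a or Cr2 were left.

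For each member, the genes with the most similar level over the 30 libraries were listed by Pearson's r of log2(CPM + 1), among 12177 other genes that reached 20 CPM in a library. These r are descriptions over libraries that share animals. For Cd79a they were Iglc2 (0.971), Iglc1 (0.961) and Igkc (0.960), and for Ms4a1 they included Iglc2 (0.993) and Iglc1 (0.985). Vpreb3 was matched at 0.998 by Wnt10a and by kappa variable genes such as Igkv8-28, and Rag1 by Igkv8-27, Ighv10-1 and Ighv1-18 at 0.989 each. For Fcer2a they were Kcnmb3 (0.952), Fcmr (0.930), which encodes an IgM receptor, and Iglc1 (0.927). Genes read almost only in the B cell libraries have a high r with each other for that reason alone. Rag1 rests besides on 3 positive B cells. The members with reads in several subtypes had lower values. Cd22 was matched by Bhlhe41 (0.803), Lclat1 (0.733) and Mcoln2 (0.725), Cd79b by Emid1 (0.696), Igkc (0.675) and Iglc2 (0.673), Cd24a by Strn4 (0.731), Atr (0.718) and Gpn2 (0.716), and Cr2 by Nek8 (0.742), Zfp213 (0.741) and Cplx2 (0.705).

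Within B cells, similarity was ranked by the lower of the 2 animals' Spearman rho, over 39 and 25 thinned cells and 3647 genes. Vpreb3 went with Chchd10 (rho 0.655 in the female and 0.722 in the male), Sdc4 (0.616 and 0.718), which encodes a syndecan, and Cd72 (0.468 and 0.491). For Cd24a the leading genes were BC035044 (0.496 and 0.516), Rabggtb (0.457 and 0.538) and Wdfy4 (0.433 and 0.468). For Fcer2a they were Syngr2 (0.423 and 0.401), H2afj (0.399 and 0.519) and Ctss (0.399 and 0.423), but Fcer2a had any read in only 9 and 4 cells. Cr2 had Pts (0.433 and 0.441), Mocs2 (0.424 and 0.539) and 2010309G21Rik (0.388 and 0.536), but rests on 4 and 5 cells with any read. After thinning, 4 and 3 cells had a Cr2 read.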

How the data were processed

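The authors deposited raw read counts per gene and cell, whole numbers with no normalization, in a table of 18072 genes and 1183 cells. STAR 2.5.2b, HTSeq 0.10 and the build name GRCh38, which is a human build although the cells are of mouse, are listed per the submitters' processing notes with no role given. How strands were counted is not given in the sources used here. Libraries were made with Tn5 transposase on plates, per the labels' protocols; no molecular identifiers are named, so reads are not independent molecules. A cell had from 16753 to 7560179 reads.

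The members and gene lists were chosen with earlier results of these data known. Named are all members, the list genes with the highest levels or against their list, and the 3 genes most similar to a member by the 2 measures described in the report. Counts were summed per animal and label, and tested with edgeR 4.0.16 (quasi-likelihood, TMM, filterByExpr, R 4.3.3), B cells against all other cells in 4 libraries and against each of 14 subtypes in 30 libraries, with Benjamini-Hochberg adjustment over all tests and calls at 0.05. The single Mac I cell was left out of the 30 libraries and was counted among all other cells in the 4 libraries. Some genes of the lists are not reported here by name. Code was tested on simulated data. The labels name the same animal for both libraries of a pair, so libraries are paired by animal: the female-minus-male differences of B cells and other cells had r = 0.13 across genes. Cells were thinned to 100000 reads (5 cells were shallower), and at least 5 reads counted as positive. Intervals are 95% Clopper-Pearson or exact Poisson and, like the limit that 3 counts set for a share of 0, cover counting error only. P-values rest on 2 mouse names, each taken as 1 animal. Exon lengths came from GENCODE on GRCm38. DESeq2 1.42.0, no filter, an animal block, left-out libraries, equal weights, the shared run and other positive thresholds were tried. Chosen after seeing the data were the fits without cells that went against their labels.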

Additional observations from a re-analysis of the deposited data

Results flagged for a closer look

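The single cell labelled Mac I, a male cell, was summed into the other cells but entered no comparison by subtype. It had Cd24a at 66.8 CPM and none of the other members. It was marked because a signal above the limit of 3 reads appeared in a label outside the comparisons by subtype. No untreated control exists here against which to set it.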

How the results depend on the processing

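All 9 log2 fold changes of B cells against the other cells kept their direction under all 12 alternatives. How many of all genes were called also changed with the fit, so the counts of members below have no common background share. The count of members called was 6 and stayed between 4 and 8, except within the shared sequencing run, where it was 2. It was 6 with the animal as a block and from 4 to 8 with a library left out, where a lone library is assumed to vary like the others. The 7 called pairs of member and subtype were less stable. They became 4 with the animal as a block, 4 when all cells were given equal totals, 51 with DESeq2, 23 within the shared run, 11 without the doubtful B cell labels and 44 without the cells of other labels with B cell markers, and from 0 to 1 with a library left out. The cause was not tested, and the share of all tests called is given for the main fit only. The 5 B cells positive for Vpreb3 and for Fcer2a or Cr2 became 3 at 20 thinned reads and 3 without cells carrying markers of other types, the first being a stricter threshold and the second fewer cells. The number of members positive in at least 50% of B cells of both animals was 4, and 5 without plate 2. Rag1 and Cr2 were positive in 3 and 2 B cells, so their levels are limited by the number of cells.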

Other observations

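Other genes also differed in how often they were positive beside Vpreb3. The follicle-homing receptor gene Cxcr5 was positive in 3 of 16 Vpreb3-positive B cells without surrogate light chain in the female and in 13 of 19 Vpreb3-negative cells. In the male it was positive in 2 of 8 and 5 of 12. The gene Cd93, a surface marker of immature B cells, was positive in 7 of 16 against 2 of 19 cells in the female and in 0 of 8 against 3 of 12 in the male, so the animals went opposite ways. Tnfrsf13c was positive in 14 of 16 and 14 of 19 cells of the female and in 8 of 8 and 8 of 12 of the male. These genes were chosen after their values were seen, and no test was made of them.

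In the B cells of the female and the male, Sdc1 was at 0 and 0.278 CPM and Jchain at 6.14 and 0 CPM. Mzb1, from the same list of germinal centre and plasma cell genes, was positive in 34 and 19 cells, including all surrogate light chain cells.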
